A study of Mus musculus with 14 samples.

Results

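Hdac4, Hdac5, Hdac7, Hdac9, Mef2a, Mef2c and Mef2d encode the class IIa histone deacetylases and the MEF2 transcription factors that bind them. The 7 genes, of 21883 protein-coding mouse genes on the nuclear chromosomes, were listed as targets of the class of drug given and as the factors those targets bind, not by their measured values. Acetylation of lysine 27 on histone H3 (H3K27ac), which marks promoters and enhancers in use, was examined at each of them in tumour-associated macrophages of pracinostat-treated and vehicle-treated mice. All hosts were NSG mice, an immunodeficient strain that lacks mature lymphocytes, and all carried orthotopic xenografts of T387, a human glioblastoma (GBM) model. The pracinostat group received pracinostat at 30 mg/kg by oral gavage and the DMSO group received the solvent mixture alone, so both were given DMSO, PEG300 and Tween-80. Dosing began on day 7 after implantation and ran for 3 weeks with 4 doses per week. The preparation protocol in the labels gives 3 mg/kg instead, so the dose is uncertain. Cells positive for CD11b, an integrin of myeloid cells, were sorted at the endpoint. There were 4 pracinostat and 3 DMSO libraries with the H3K27ac antibody, and as many with non-specific IgG. The labels call the libraries of a group biological replicates and do not say which or how many animals gave each one, nor the ages and sexes of the animals. The p-values below therefore describe the spread from library to library.

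Class IIa deacetylases have little catalytic activity of their own on acetylated histones. They bind MEF2 factors through their N-terminal part and hold MEF2 target genes silent together with the HDAC3 and NCoR/SMRT corepressor complex. Phosphorylation by calcium/calmodulin-dependent kinases, protein kinase D and salt-inducible kinases lets 14-3-3 proteins bind them and carry them out of the nucleus, which frees MEF2 to recruit acetyltransferases. Pracinostat is a hydroxamate that chelates the zinc of the deacetylase catalytic site. MEF2C and MEF2A belong to the transcription factors known for the enhancers of microglia, the macrophages that reside in brain tissue.

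CUT&Tag was used, a method that tethers a transposase to an antibody on chromatin and so tags the DNA nearby. Each library was available as a list of summits, the single bases where each peak is highest, and every summit came with a significance on a −log10 scale. The pracinostat H3K27ac libraries held 229609 to 289017 summits and the DMSO H3K27ac libraries 53503 to 291042. The pracinostat IgG libraries held 2194 to 10186 summits and the DMSO IgG libraries 9244 to 18517. DMSO replicate 2 had the shortest H3K27ac list, with 65.3% of its 53503 summits at its lowest value. The reads behind each list are not known here. Because the value was not scaled between libraries, each gene was placed by the rank of its highest summit within its own library, as a percentile from 0 to 100 among ranked genes. A gene was ranked where at least 3 of the 7 H3K27ac libraries had a summit in its window. An equal change of acetylation at every site would not show in ranks, and fewer marked cells and weaker marking per cell cannot be told apart.

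The sorted cells carried the marks of macrophages at the genes that define them. Of 10 macrophage and microglia genes, 9 had a summit within 1 kb of a gene end in all 7 H3K27ac libraries, where 34.7% of all genes had. The mean percentile of the 10 was 65.5 to 78.0 in pracinostat libraries and 61.5 to 68.9 in DMSO libraries. Of the other cell types, 1 of 8 neuron, 1 of 5 muscle, 4 of 7 oligodendrocyte, 3 of 5 astrocyte, 4 of 7 endothelial and mural and 5 of 8 lymphocyte genes were ranked. Oligodendrocyte genes averaged 25.9 to 34.1 in pracinostat libraries and 28.3 to 54.5 in DMSO libraries, with 2 of them marked in all 7 libraries. Astrocyte genes averaged 28.3 to 45.4 in pracinostat libraries and 22.3 to 37.8 in DMSO libraries, endothelial and mural genes 22.9 to 35.5 and 11.7 to 39.4, and lymphocyte genes 20.3 to 34.8 and 19.0 to 30.2. Of 10 neutrophil genes, 9 were ranked, at means of 16.7 to 25.2 in pracinostat libraries and 26.9 to 38.1 in DMSO libraries. Of the 10, 2 were marked in all 7 libraries and only Ly6g had no summit in any library.

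The annotated starts of the 7 genes differed in base composition, and the sequences below are shown because the starts that carried H3K27ac in every library fall on both sides of that difference. Of 13 annotated starts, numbered from the 5′ end of each gene, Hdac7 had 4, Mef2c 3, Hdac9 2 and the other members 1 each. The 200 bases before a start are printed 5′ to 3′ on the gene's own strand, from RefSeq on GRCm38.p6, the assembly that mm10 names, with CpG pairs in capitals. The first 3 are the starts of Hdac4, Mef2a and Mef2d, marked by a summit within 1 kb in 7 of 7 H3K27ac libraries, as were 34.7% of all 21262 annotated starts. Start 2 of Hdac7 is as rich in CpG and was marked in 5. The 3 starts of Mef2c follow, marked in 0, 5 and 7 libraries, and then start 1 of Hdac9, marked in 1.
Hdac4, chr1:92180342-92180541, minus strand: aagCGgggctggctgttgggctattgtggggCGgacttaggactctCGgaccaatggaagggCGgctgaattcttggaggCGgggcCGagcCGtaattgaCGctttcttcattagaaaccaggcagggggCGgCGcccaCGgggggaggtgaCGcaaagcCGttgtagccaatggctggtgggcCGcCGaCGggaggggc
Mef2a, chr7:67372859-67373058, minus strand: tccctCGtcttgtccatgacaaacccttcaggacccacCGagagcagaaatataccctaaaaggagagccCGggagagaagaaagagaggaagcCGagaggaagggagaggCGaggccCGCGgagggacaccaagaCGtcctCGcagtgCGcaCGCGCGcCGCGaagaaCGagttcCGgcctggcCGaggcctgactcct
Mef2d, chr3:88142172-88142371, plus strand: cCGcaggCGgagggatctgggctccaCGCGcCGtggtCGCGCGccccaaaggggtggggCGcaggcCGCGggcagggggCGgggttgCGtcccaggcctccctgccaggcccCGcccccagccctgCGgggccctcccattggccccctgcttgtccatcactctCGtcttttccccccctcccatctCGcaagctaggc
Hdac7 start 2, chr15:97831768-97831967, minus strand: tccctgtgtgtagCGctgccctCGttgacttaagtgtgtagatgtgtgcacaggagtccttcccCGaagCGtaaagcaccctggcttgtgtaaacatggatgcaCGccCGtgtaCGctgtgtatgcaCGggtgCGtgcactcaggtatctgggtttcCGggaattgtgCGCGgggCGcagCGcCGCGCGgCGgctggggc
Mef2c start 1, chr13:83503834-83504033, plus strand: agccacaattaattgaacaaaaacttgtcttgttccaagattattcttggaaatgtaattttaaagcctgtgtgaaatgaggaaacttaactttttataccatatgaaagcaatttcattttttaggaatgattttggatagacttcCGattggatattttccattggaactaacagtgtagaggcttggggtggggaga
Mef2c start 2, chr13:83523456-83523655, plus strand: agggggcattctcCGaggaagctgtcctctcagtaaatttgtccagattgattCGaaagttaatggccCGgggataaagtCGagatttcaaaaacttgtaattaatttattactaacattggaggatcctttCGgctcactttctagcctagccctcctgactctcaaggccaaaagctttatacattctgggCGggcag
Mef2c start 3, chr13:83573407-83573606, plus strand: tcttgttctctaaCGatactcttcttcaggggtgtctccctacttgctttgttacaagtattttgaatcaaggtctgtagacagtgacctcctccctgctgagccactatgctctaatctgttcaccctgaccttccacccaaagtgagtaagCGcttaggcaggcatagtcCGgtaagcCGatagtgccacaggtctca
Hdac9 start 1, chr12:34917096-34917295, minus strand: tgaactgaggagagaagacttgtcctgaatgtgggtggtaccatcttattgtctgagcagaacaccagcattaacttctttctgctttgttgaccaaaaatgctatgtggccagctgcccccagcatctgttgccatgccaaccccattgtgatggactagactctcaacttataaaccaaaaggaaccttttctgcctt

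In the 300 bases from 250 before to 50 after the start, CpG pairs numbered 32 at Hdac4, 27 at Mef2a, 24 at Mef2d and 18 at Hdac5. They numbered 6, 35, 31 and 5 at Hdac7 starts 1 to 4, 1, 10 and 4 at Mef2c starts 1 to 3, and 0 and 3 at Hdac9 starts 1 and 2. Over all 21262 annotated starts of protein-coding genes, the median was 23 CpG pairs for the starts with a summit within 1 kb in all 7 libraries, 11 for those with one in 1 to 6 libraries and 3 for those with none. The marked starts of Hdac4, Mef2a and Mef2d thus lie at or above the first of these medians. Start 3 of Mef2c, with 4 CpG pairs, lies near the last of them and was marked in all 7 libraries. Hdac7 starts 2 and 3 go the other way, since they are CpG-rich and were marked in 5 and 4 libraries. They lie 12735 and 13007 bp inside the gene, so their 1 kb windows largely overlap. The 4 libraries of start 3 had the same highest value at start 2, so the 2 starts are not separate cases.

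**Figure D1:**
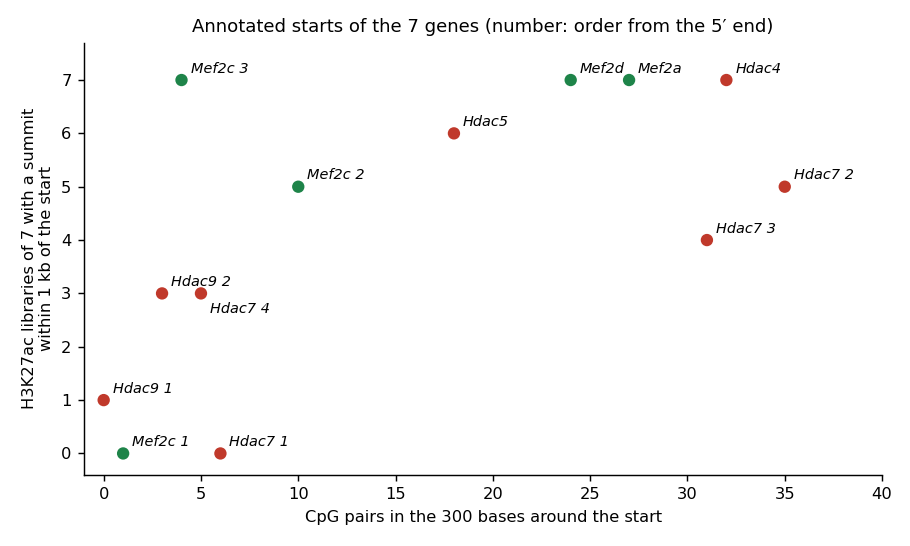
Number of H3K27ac libraries, of 7, with a summit within 1 kb of each of the 13 annotated starts (vertical axis), against CpG pairs in the 300 bases around the start (horizontal axis); red points are deacetylase genes and green points Mef2 genes. Hdac4, Mef2a and Mef2d stand at upper right with 32, 27 and 24 CpG pairs, Mef2c start 3 at upper left with 4, and both Hdac9 starts at lower left with 0 and 3.

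The same windows were searched on both strands for motifs of factors tied to these genes. A MEF2 motif occurred in 2.74% of all 21262 windows and in those of Hdac5 and Mef2a. In the lines below the match is in capitals, and both are read on the minus strand of RefSeq GRCm38.p6. The Hdac5 match ends 11 bases before the start and the Mef2a match lies across the start.
Hdac5, chr11:102230173-102230202, minus strand: gggtctgagcCTATTTTTAGctcggggtcg
Mef2a, chr7:67372841-67372870, minus strand: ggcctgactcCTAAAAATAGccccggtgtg
The AP-1 motif TGANTCA, found in 6.99% of windows, occurred once at Hdac7 start 4, Hdac9 start 2 and Mef2c start 3. The GC box GGGCGG, found in 46.2% of windows, had 5 matches at Hdac4, 2 at Mef2d and 1 each at Hdac5, Hdac7 start 3 and Mef2c start 2. The core motif of PU.1, a factor that defines macrophages, spelled GAGGAA and found in 27.4% of windows, had 2 matches at Mef2a and 1 each at Hdac7 start 3, both Hdac9 starts and Mef2c starts 1 and 2. The cyclic AMP response element TGACGTCA, found in 2.23% of windows, did not occur at the 13 starts. A match describes these letters only.

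Every member had an H3K27ac summit over its span plus 10 kb in all 7 libraries, as had 61.6% of all genes and 74.8% of genes of at least 100 kb. All but Hdac5 also had an IgG summit there in at least 1 of 7 libraries, as had 58.9% of all genes and 97.4% of genes of at least 100 kb. The H3K27ac lists are longer than the IgG lists, so summits were also counted as a share of each library's list. By that share every H3K27ac library lay above every IgG library at 5 of the 7 genes, and at Hdac7 and Hdac9 they overlapped. Counted over the gene span plus 10 kb on each side, per 100000 summits of the library, Hdac4 held 29.5 to 42.7 summits in H3K27ac libraries and 0 to 21.6 in IgG libraries. Mef2c held 22.1 to 35.3 in H3K27ac libraries and 0 to 19.6 in IgG libraries, Mef2d 21.1 to 37.4 and 0 to 9.82, Mef2a 13.1 to 35.3 and 0 to 9.81, and Hdac5 13.9 to 25.3 and 0. The 7 H3K27ac libraries lay above the 7 IgG libraries at these 5 genes, as they did at 25.1% of all 21883 genes. Hdac7 held 4.87 to 22.4 in H3K27ac libraries and 0 to 16.5 in IgG libraries. Its number of summits was 12 to 35 in H3K27ac libraries and 0 or 1 in IgG libraries, and the share of 16.5 is 1 summit in a list of 6077. Hdac9, the longest member at 870 kb (869516 bp), held 9.35 to 23.9 in H3K27ac libraries and 0 to 43.2 in IgG libraries, so its highest share came from an IgG library, with 8 summits in a list of 18517. At the gene ends no IgG library had a summit for any member. Of all genes 8.67% had one in at least 1 IgG library, so none among 7 genes is near that share. Within 1 kb of the annotated starts, 1 IgG library each had a summit near Mef2c start 3 and Hdac7 start 4.

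**Figure D2:**
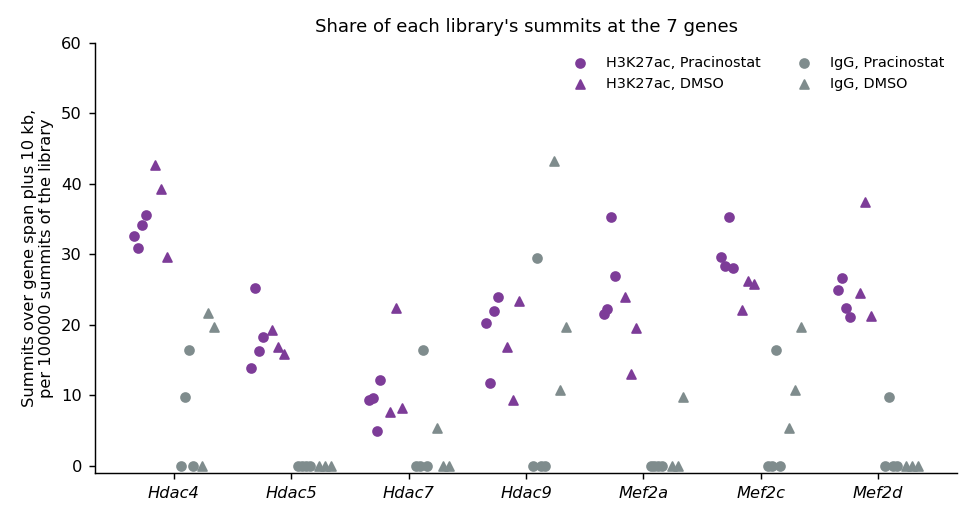
Summits over each gene span plus 10 kb per 100000 summits of the library (vertical axis) for the 7 members, with H3K27ac in purple left of IgG in grey, circles for pracinostat and triangles for DMSO libraries. H3K27ac and IgG points do not overlap at Hdac4, Hdac5, Mef2a, Mef2c and Mef2d; at Hdac9 an IgG library reaches 43.2, above the highest H3K27ac library at 23.9.

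Among the deacetylases, Hdac4 was marked at its start and Hdac5 inside the gene. Hdac4, best known from cartilage and muscle, spans 267 kb at chr1:91928779-92195702 on the minus strand. Its annotated start lies 15361 bp inside the 5′ end of the gene span, so the window at the span's own ends held a summit in 2 libraries. At the start itself the percentile was 69.4, 62.4, 70.5 and 86.4 in pracinostat libraries and 69.2, 59.0 and 91.7 in DMSO libraries, among 12308 ranked starts. The treatments overlap, and in all 7 libraries the start stood above the median start. Regions were also built over the genome by merging the 30000 highest summits of each library, each widened by 250 bp, and ranked in the same way (48281 regions). The region over the Hdac4 start, chr1:92180086-92180996, had the percentiles 84.8, 83.9, 85.4 and 94.3 in pracinostat libraries and 88.1, 77.7 and 97.1 in DMSO libraries. A second region 128 kb downstream, chr1:92051523-92052721, was also marked in all 7 libraries with a mean of 76.3, and it held the highest summit of the gene in pracinostat replicate 1 and DMSO replicate 2.

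Hdac5, known for its export from the nucleus in heart muscle and neurons under stress, spans 34.4 kb at chr11:102195747-102230172 on the minus strand. Its highest summit lay 11119 to 11229 bp downstream of the start in 6 of 7 libraries and 12123 bp downstream in DMSO replicate 3. All 7 summits fall in 1 region of 3722 bp, chr11:102217547-102221268, the highest-ranked region of the gene. That region had the percentiles 99.0, 95.1, 96.9 and 93.7 in pracinostat libraries and 89.2, 93.8 and 83.2 in DMSO libraries. The lowest pracinostat library sat just under the highest DMSO library. The start of Hdac5 ranked lower, at 78.3, 73.8, 47.1 and 60.8 in pracinostat libraries and 65.9, 17.4 and 61.0 in DMSO libraries, with no summit there in DMSO replicate 2. Its end windows are shared with G6pc3 and Mir8101.

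Hdac7 and Hdac9 had no region marked in all 7 libraries. Hdac7, known from thymocytes, endothelium and inflammatory macrophages, spans 51.8 kb at chr15:97792661-97844502 on the minus strand, and its 3′ end lies 31 bp from an end of Slc48a1, a heme transporter gene. Its start 1 had no summit in any library, and starts 2, 3 and 4 had mean percentiles of 20.8, 17.4 and 11.2. The highest summit over the span plus 10 kb lay inside Hdac7 in pracinostat replicates 1 and 2, and over Slc48a1 in the other 5 libraries. Of the 5 libraries with a summit at the gene ends, all had it at the 3′ end shared with Slc48a1. Inside the gene 5 regions were ranked, with 3 of them at means of 51.1, 51.4 and 52.8.

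Hdac9, whose products include a form that lacks the catalytic domain, spans chr12:34047580-34917095 on the minus strand. Only 4 of its 6 regions were ranked, at mean percentiles of 28.7 to 38.6. Its highest summit changed place between libraries, with pracinostat replicate 4 and DMSO replicate 1 alone in the same region. When each list was limited to its 30000 highest summits, Hdac9 kept a summit in 3 of 4 pracinostat and 1 of 3 DMSO libraries, while the other 6 members kept one in all 7.

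Of the 86 ranked regions of the 7 genes, 17 were marked in all 7 libraries, where 13970 of all 48281 ranked regions were. Of these 17, Mef2d held 7, Mef2c 5, Hdac4 and Hdac5 2 each and Mef2a 1. Mef2d, known from neurons, photoreceptors and the myeloid lineage, is the shortest member at 30.2 kb, chr3:88141941-88172091 on the plus strand, and 2 of its 7 such regions lie beyond its ends. Its start had the percentiles 94.6, 85.5, 98.2 and 82.4 in pracinostat libraries and 95.7, 92.7 and 97.1 in DMSO libraries. The Mef2d start stood above every other start of the members in 5 of 7 libraries, with Hdac4 above it in pracinostat replicate 4 and Mef2a in DMSO replicate 2. The top region of the gene by mean percentile, 98.1, lies beyond its 3′ end, 34.7 kb downstream of the start, over the long non-coding RNA gene 1700113A16Rik, and it held the highest summit of the window in pracinostat replicates 1 and 4 and DMSO replicate 3. The region over the Mef2d start followed with a mean of 97.1.

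Mef2a, known from heart muscle, spans 145 kb at chr7:67231163-67376456 on the minus strand, with its start 3598 bp inside the 5′ end. The start had the percentiles 83.6, 69.5, 97.1 and 75.0 in pracinostat libraries and 82.9, 97.5 and 89.8 in DMSO libraries. It was above the median start in all 7 libraries, and it was the only region of Mef2a marked in all 7. That region, chr7:67372564-67374810, reached 92.8, 88.1, 98.8 and 88.7 in pracinostat libraries and 94.1, 99.3 and 96.4 in DMSO libraries. In pracinostat replicate 2 the highest summit of the window lay instead at an end of Lysmd4, the gene downstream.

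Mef2c, the member best known in microglia, spans 163 kb at chr13:83504017-83667079 on the plus strand and was marked at internal starts. Start 1, at the 5′ end, had no summit within 1 kb in any of the 7 libraries. Start 2, 19639 bp inside the gene, had one in 4 of 4 pracinostat and 1 of 3 DMSO libraries. Its percentiles overlapped, at 35.1, 24.1, 26.7 and 54.8 in pracinostat libraries and 4.66, 17.4 and 54.4 in DMSO libraries. How many of all starts show such a split was not counted. Start 3, 69590 bp inside, had a summit within 1 kb in all 7 libraries. Its percentiles were 31.7, 14.8, 49.8 and 39.4 in pracinostat libraries and 19.4, 82.9 and 63.0 in DMSO libraries. Starts 2 and 3 averaged 31.0 and 43.0 over the 7 libraries, below the median start. The highest-ranked Mef2c region, chr13:83571734-83572512, lay between starts 2 and 3, close before start 3, and had the percentiles 90.1, 95.5, 90.7 and 81.1 in pracinostat libraries and 98.9, 93.8 and 41.3 in DMSO libraries. It is high in every library but DMSO replicate 3, where the highest summit of the gene lay 34 bp past start 3. A region 0.443 kb past start 2, chr13:83524099-83525481, was marked in all 7 libraries with a mean of 72.9. It held the highest summit in pracinostat replicate 4 and DMSO replicate 2. In DMSO replicate 2, counted without a summit at start 2, that summit lay 1173 bp past the start, just outside the 1 kb window.

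**Figure D3:**
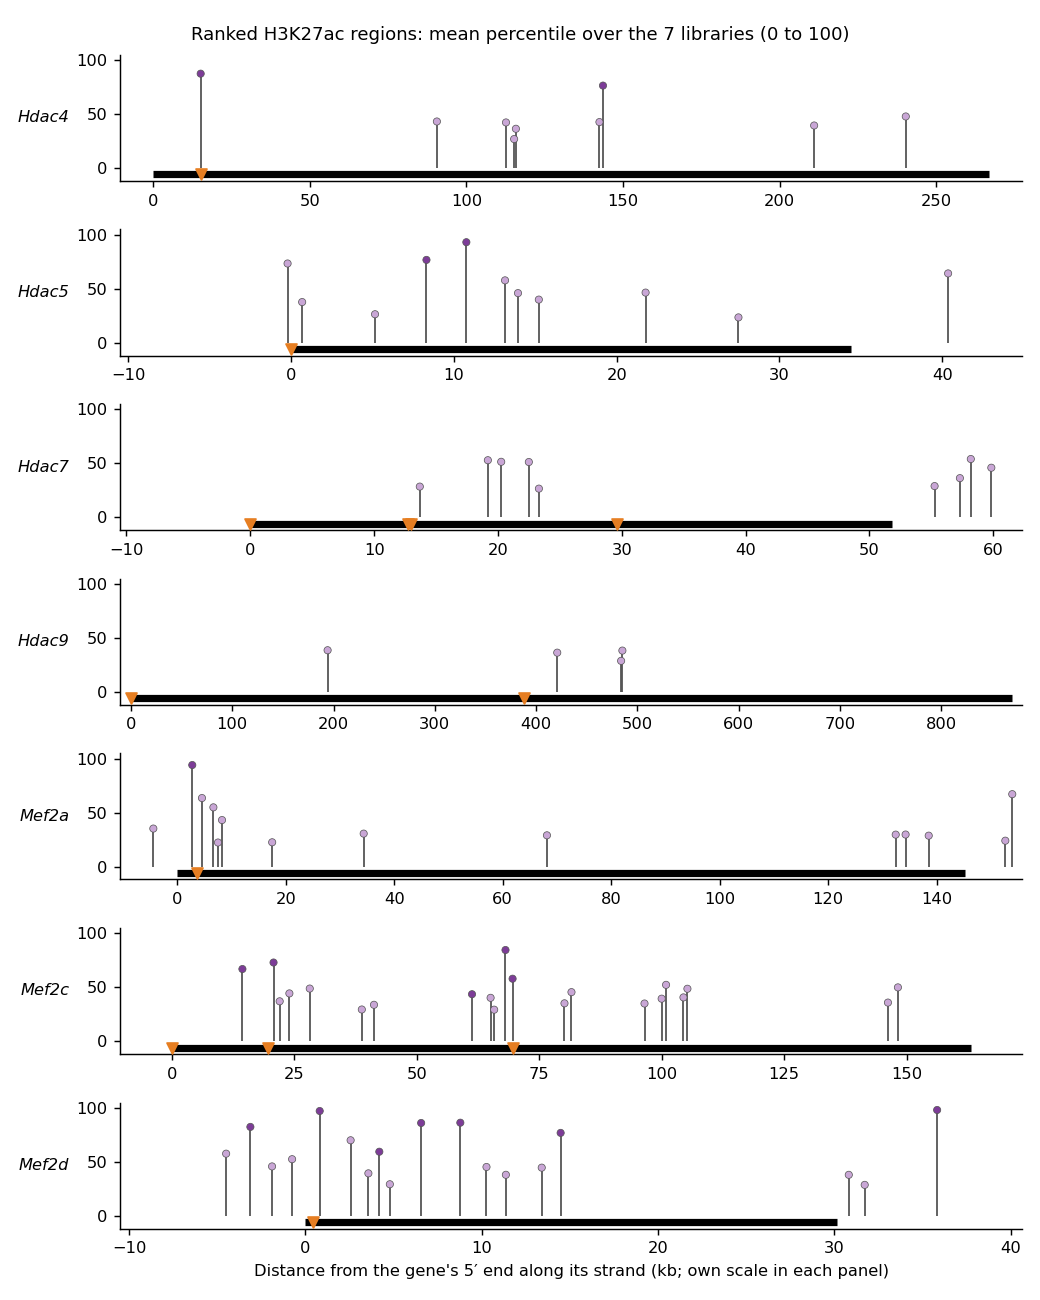
Ranked H3K27ac regions along each gene and 10 kb beyond: the horizontal axis is distance from the 5′ end in kb, on its own scale in each panel, and the height of a stem is the region's mean percentile over the 7 libraries; dark points are regions marked in all 7 libraries, black bars the gene and orange triangles the annotated starts. The top stems of Hdac4 and Mef2a stand at their starts, that of Hdac5 inside the gene, and Hdac7 and Hdac9 have no dark point.

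The 7 genes were also set in order of level. By the highest summit over the span plus 10 kb, among 18078 ranked genes, the means over 7 libraries were 93.6 for Mef2d, 84.6 for Mef2a, 79.9 for Hdac5, 77.1 for Mef2c, 75.6 for Hdac4, 55.5 for Hdac7 and 43.8 for Hdac9. Within libraries, Mef2d stood above Mef2a by 8.97 ± 10.9 percentiles (SD, n = 7), in 6 of 7 libraries. Among Mef2a, Hdac5, Mef2c and Hdac4, neighbours in this order differed by less than the SD of the difference, with the first of each pair higher in 4 of 7 libraries. Hdac4 stood above Hdac7 in 7 of 7 libraries by 20.1 ± 14.4, and Hdac7 above Hdac9 in 5 of 7.

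A long gene has more chance of a high summit, so summits per 10 kb of the same window were ranked as well. Mef2d then had a mean percentile of 99.1 and Hdac5 93.2, with Mef2d higher in 7 of 7 libraries. Hdac5 stood above Mef2c in 7 of 7 libraries by 23.4 ± 7.31 (SD, n = 7). Among Mef2c at 69.8, Mef2a at 66.5, Hdac7 at 64.1 and Hdac4 at 61.2, neighbours in this order differed by less than the SD of the difference. Hdac9, at 19.0, stood below Hdac4 in 7 of 7 libraries by 42.2 ± 4.65 (SD, n = 7). Among 2401 ranked genes of at least 100 kb, chosen as a comparison after seeing the data, the mean percentile of summit density was 91.3 for Mef2c, 89.3 for Mef2a, 87.0 for Hdac4 and 41.2 for Hdac9. These genes include many lengths, and genes as long as Hdac9 were not compared on their own.

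No member differed between pracinostat and DMSO beyond the threshold, an adjusted p of 0.05 in limma fitted over all ranked features. Over the span plus 10 kb, 0 of 18078 genes passed, with 1083 (5.99%) at an unadjusted p below 0.05. Hdac9 had the percentiles 34.6, 45.2, 80.6 and 59.1 in pracinostat libraries and 29.1, 33.5 and 24.8 in DMSO libraries. All 4 pracinostat libraries stood above all 3 DMSO libraries, by 0.70 ± 0.29 normal-score units (SE), where 1 unit is 1 SD of all ranked genes. Hdac9 was the 1 member with an unadjusted p below 0.05, and its adjusted p in limma was 0.787. Hdac5 had 96.4, 82.8, 89.4 and 80.5 in pracinostat libraries and 69.1, 79.6 and 61.7 in DMSO libraries. Here too the groups did not overlap, with a difference of 0.67 ± 0.35 units (SE) and an adjusted p of 0.839. These 2 of 7 members stood wholly higher and 0 wholly lower, where 3.03% of all ranked genes stood wholly higher and 3.36% wholly lower. In the Hdac9 window the share of summits in DMSO IgG libraries was as high as 43.2 per 100000, as given above, and the part of background in its value was not tested.

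The other 5 members overlapped between the treatments over the span. Hdac4 had 73.4, 59.9, 66.0 and 82.0 in pracinostat libraries and 67.1, 90.9 and 89.9 in DMSO libraries, a difference of -0.47 ± 0.34 units (SE). Mef2c had 73.4, 84.0, 74.5 and 59.1 in pracinostat libraries and 95.7, 93.1 and 59.9 in DMSO libraries, a difference of -0.52 ± 0.38. In both genes 2 of the 3 DMSO libraries were the highest of the 7. Mef2a had 79.2, 82.1, 95.6 and 70.2 in pracinostat libraries and 80.5, 97.1 and 87.7 in DMSO libraries (-0.32 ± 0.38). Mef2d had 97.5, 82.8, 97.0 and 94.6 in pracinostat libraries and 94.5, 90.9 and 97.8 in DMSO libraries (-0.05 ± 0.40). Both Mef2 genes stayed above percentile 70 in every library. Hdac7 had 48.0, 58.8, 48.2 and 45.0 in pracinostat libraries and 55.6, 52.0 and 81.3 in DMSO libraries (-0.36 ± 0.29), values that in 5 libraries are those of summits over Slc48a1. The adjusted p was 0.887 or more for these 5 genes. The median difference was -0.32 units over the 7 members and -0.01 over all ranked genes.

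**Figure D4:**
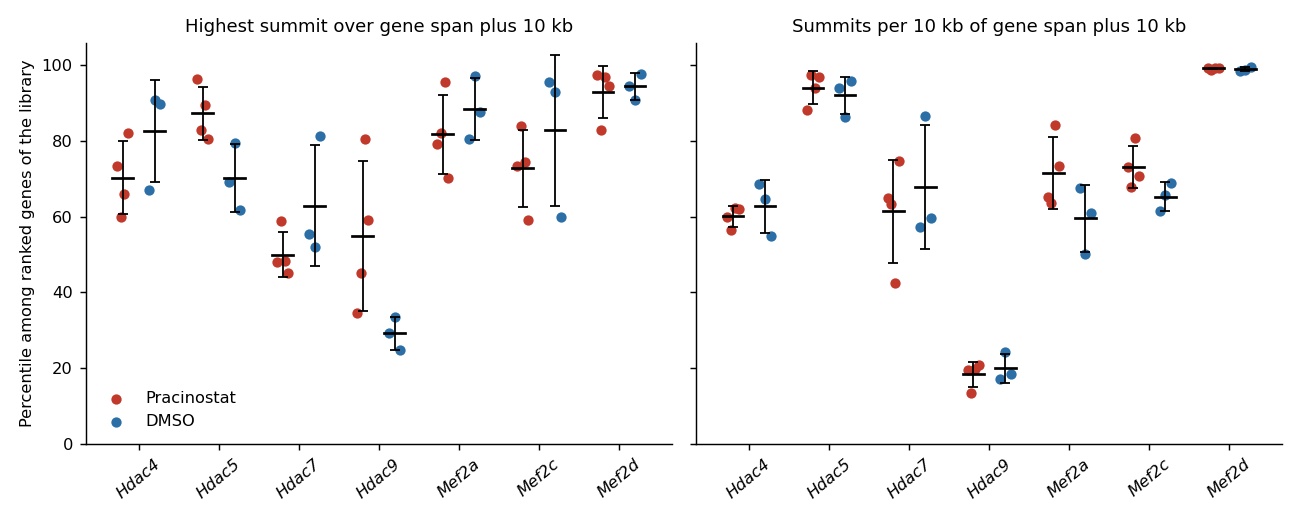
Within-library percentile of each member (vertical axis, 0 to 100) by its highest summit (left panel) and by summits per 10 kb (right panel), with each pracinostat library in red and each DMSO library in blue; bars show mean ± SD. In the left panel the red and blue points separate only at Hdac5 and Hdac9, and in the right panel at no gene.

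In normal-score units, summits per 10 kb differed less between the treatments than the highest summit did, except at Mef2a. The sign was opposite to that over the span at Mef2a, Mef2c (0.23 ± 0.16, SE), Hdac9 (-0.06 ± 0.20) and Mef2d (0.01 ± 0.19). None of the 7 members separated, where 3.19% of ranked genes stood wholly higher and 3.53% wholly lower, and no member reached an unadjusted p of 0.05, as 6.11% of ranked genes did. The largest difference was that of Mef2a, with 65.3, 63.6, 84.4 and 73.5 in pracinostat libraries and 67.7, 50.1 and 61.0 in DMSO libraries, 0.35 ± 0.20 units (SE) with an adjusted p of 0.820. Hdac9 had 19.6, 13.4, 19.7 and 20.7 in pracinostat libraries and 17.0, 24.3 and 18.3 in DMSO libraries, and here its groups overlapped.

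Within 1 kb of the gene ends, 4 members could be ranked among 13491 genes, of which 0 passed and 832 (6.17%) had an unadjusted p below 0.05. Hdac4, Mef2c and Hdac9 had summits there in 2, 2 and 1 libraries and were not ranked. Hdac7 had 5.15, 3.69, 14.9 and 12.1 in pracinostat libraries and 22.6, 47.3 and 12.0 in DMSO libraries. It was the 1 member at an unadjusted p below 0.05, at -0.74 ± 0.37 units (SE). Its adjusted p in limma was 0.808, and the window is the one it shares with Slc48a1. In DMSO replicate 2 a summit at that library's lowest value ties at percentile 47.3 and a gene with none at 19.0, which sets the Hdac7 value there. Hdac5 (0.49 ± 0.38), Mef2a (0.32 ± 0.36) and Mef2d (0.13 ± 0.41) overlapped between treatments, with adjusted p of 0.887, 0.935 and 0.975. Without DMSO replicate 2, in which Hdac5 had no summit, its difference was 0.044 units. At the annotated starts, a window added after seeing the data, 0 of 12308 starts passed and 750 (6.09%) had an unadjusted p below 0.05, among them none of the 10 ranked starts of the members. None of the 10 separated, where 2.79% of ranked starts stood wholly higher and 3.5% wholly lower.

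**Figure D5:**
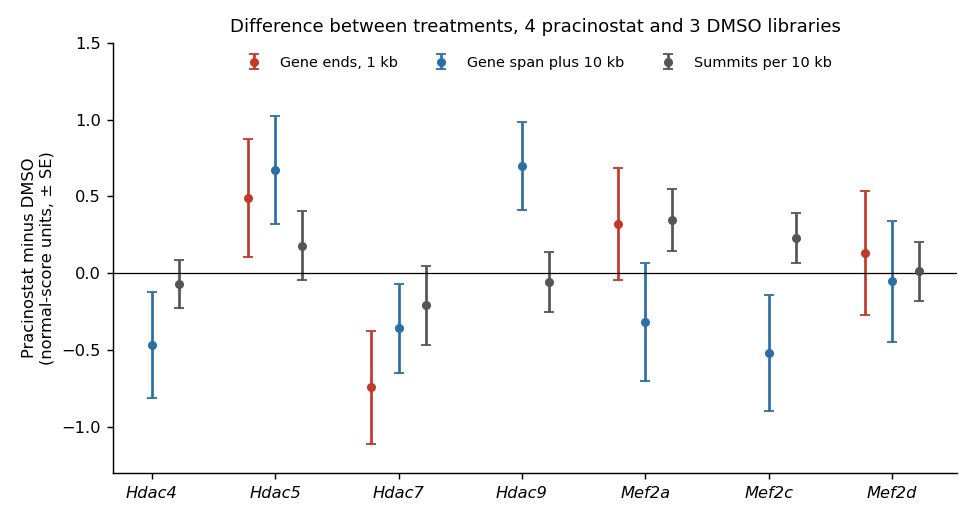
Difference between pracinostat and DMSO libraries (vertical axis, normal-score units, with SE) for each member by gene ends, gene span plus 10 kb and summits per 10 kb; members without a red point were not ranked at gene ends. Hdac9 has the highest point (0.70, span) and Hdac7 the lowest (-0.74, gene ends), and no adjusted p was below 0.787.

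Region by region, 104 regions lay over the 7 genes and their flanks and 86 were ranked. Of these 4 (4.65%) had an unadjusted p below 0.05, where 5.15% of all ranked regions did, and the lowest adjusted p was 0.892; 2 of 48281 regions (0.00414%) passed in all, none of them here. Groups separated at 3 regions with pracinostat higher and 3 with pracinostat lower, where 3.33% and 3.06% of all ranked regions did. A region with no summit ties at 9.02, 7.43, 10.7 and 7.66 in pracinostat replicates 1 to 4. In DMSO replicates 1 to 3 it ties at 10.0, 25.1 and 10.1. A summit at the lowest value of DMSO replicate 2 ties at 60.8. The values below include such ties. A region of Hdac9, chr12:34431646-34432146, inside the gene, had 41.3, 45.4, 59.1 and 76.7 in pracinostat libraries and 10.0, 25.1 and 10.1 in DMSO libraries. All 4 pracinostat libraries and no DMSO library had a summit there (1.23 ± 0.55 units, SE). A pair of neighbouring regions over Slc48a1 in the Hdac7 flank went opposite ways. The first, chr15:97784239-97785084, had 50.3, 81.2, 65.7 and 64.2 in pracinostat libraries and 24.4, 25.1 and 10.1 in DMSO libraries. The second, chr15:97785962-97786674, had 62.0, 50.4, 10.7 and 22.6 in pracinostat libraries and 80.1, 77.7 and 73.9 in DMSO libraries. The groups do not overlap in either, and each was 1 of the 4 at an unadjusted p below 0.05. Inside Mef2d, chr3:88145260-88145760 had 36.5, 7.43, 10.7 and 42.0 in pracinostat libraries and 46.8, 60.8 and 71.3 in DMSO libraries. Also inside Mef2d, chr3:88151838-88152576 had 9.02, 45.4, 38.2 and 30.2 in pracinostat libraries and 67.8, 60.8 and 65.4 in DMSO libraries. All 4 pracinostat libraries stood below all 3 DMSO libraries in both, by -1.06 ± 0.55 and -0.95 ± 0.52 units (SE). Inside Mef2c and overlapping the non-coding gene Gm52043, chr13:83600238-83600738 had 31.6, 30.6, 47.8 and 71.3 in pracinostat libraries and 27.8, 25.1 and 10.1 in DMSO libraries. It was the last of the 6 regions at which the groups separated (0.73 ± 0.56 units, SE). The regions with the smallest p in Hdac4 and Mef2c overlapped between treatments. In Hdac4, chr1:92082599-92083566 had 31.6, 45.4, 53.6 and 81.1 in pracinostat libraries and 10.0, 25.1 and 47.9 in DMSO libraries. Over Mef2c start 3, chr13:83573247-83573891 had 45.9, 27.4, 65.7 and 56.0 in pracinostat libraries and 34.7, 93.8 and 81.7 in DMSO libraries. Upstream of Mef2a, chr7:67380607-67381119 had 19.6, 30.6, 86.6 and 64.2 in pracinostat libraries and 10.0, 25.1 and 10.1 in DMSO libraries. Here too all 4 pracinostat libraries and no DMSO library had a summit (1.10 ± 0.56 units, SE). The percentiles overlap because DMSO replicate 2, with no summit, ties at 25.1, above pracinostat replicate 1 at 19.6. This region was 1 of the 4 at an unadjusted p below 0.05, as was the Hdac9 region. Neutrophil genes stood lower in all pracinostat than in all DMSO libraries, as given above, and the part of cell makeup in these values was not tested. With 4 and 3 libraries, a p above the threshold does not show that acetylation was alike.

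The partners of these proteins were followed at their gene ends as a list of 44 genes, of which 41 were ranked; Camk2a, Camk4 and Prkd1, kinases, were not. None passed, 4 had an unadjusted p below 0.05, as 6.17% of all ranked genes had, with pracinostat higher at 2 and lower at 2, and 2 separated lower and 0 higher, where 3.79% and 2.88% of all genes did. The mean was higher in pracinostat at 17 and lower at 24, where it was lower at 6898 of all 13491 ranked genes, with a median difference of -1.61 percentiles, against -0.30 over all ranked genes. By role, pracinostat means were lower at 9 of 10 Mef2 kinases, phosphatase subunits and cofactors, at 6 of 7 family and corepressor partners, at 3 of 7 14-3-3 genes, at 3 of 11 kinases of the deacetylases and at 3 of 6 Mef2 target genes. Sik1, a salt-inducible kinase that phosphorylates class IIa deacetylases, averaged 42.7 ± 18.1 in pracinostat libraries and 75.3 ± 3.43 in DMSO libraries (SD, n = 4 and 3), with all 4 below all 3. Crebbp, an acetyltransferase that MEF2 recruits, averaged 41.2 ± 28.2 in pracinostat libraries and 63.6 ± 10.0 in DMSO libraries. Ywhae, a 14-3-3 gene, averaged 59.6 ± 9.83 in pracinostat libraries and 81.1 ± 1.65 in DMSO libraries, and also separated. In the other direction Camk2d, a calcium/calmodulin-dependent kinase, averaged 69.6 ± 17.9 in pracinostat libraries and 34.6 ± 14.7 in DMSO libraries. Jun, a MEF2 target, averaged 94.4 ± 7.80 in pracinostat libraries and 77.6 ± 13.3 in DMSO libraries, and Camk2g 80.1 ± 17.6 in pracinostat libraries and 66.0 ± 24.5 in DMSO libraries. The adjusted p of these 6 genes, picked by their difference in percentiles, was 0.746 or more. In normal-score units the largest difference was at Ppp3ca, of the Mef2 kinases, phosphatase subunits and cofactors (-1.18 ± 0.47, SE). Ppp3ca averaged 84.6 ± 14.6 in pracinostat libraries and 97.0 ± 4.76 in DMSO libraries, with overlap. It was 1 of the 4 at an unadjusted p below 0.05, and its adjusted p in limma was 0.777.

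Among 7586 genes with a summit at the ends in all 7 libraries, the gene whose percentiles ran most like those of each ranked member was Ddx54 for Hdac5 (Pearson's r = 0.967), Pik3r1 for Hdac7 (r = 0.986), Hsd3b7 for Mef2a (r = 0.979) and Dolk for Mef2d (r = 0.960). Each r is the highest of the genes searched over the same 7 libraries, which include the ties of DMSO replicate 2, and is given as a description.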

How the data were processed

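H3K27ac and IgG CUT&Tag was measured in 14 libraries. The authors deposited 1 summit list per library with a −log10 significance, of p or q, per summit. HOMER, DESeq2, MACS2 2.2.9.1, Bowtie2 and the build mm10 are named in the submitters' processing notes. For their roles, the calling threshold and the read depth, nothing is given in the sources used here. Peaks were called by library, not on pooled reads.

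Gene spans came from a RefSeq table of GRCm38.p6, and starts and sequences from its promoter table (21262 starts of 17491 protein-coding genes, matched by gene ID). Windows were 1 kb around gene ends and starts, and the span plus 10 kb. The highest value per window was ranked within each library, features without a summit tied lowest, and percentiles became normal scores. Pracinostat was compared with DMSO by limma 3.58.1 (trended, robust, statmod 1.5.0, R 4.3.3) with Benjamini-Hochberg adjustment over all ranked features. Regions (60369, of which 48281 ranked) were summits of lists limited to 30000, widened by 250 bp and merged. The limma step was tested on simulated data with known differences at gene ends. It called 7.46% of planted differences of 1 normal-score unit, 62.7% of those of 2 units and 93.9% of those of 3 units.

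The members and gene lists were chosen with earlier results of these data known. Values were named by rule: all members, and for partners up to 3 per direction with the largest difference in mean percentile. Named per member were also the region with the highest mean, that with the smallest p and the most similar gene. Regions or summits outside this rule and Ppp3ca were chosen after their values were seen, as were annotated starts, long genes and shares of summits. Alternatives varied windows, list lengths, filters, covariates, weights and blocks, and left out each library.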

Additional observations from a re-analysis of the deposited data

Results flagged for a closer look

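In 28 groups of 4 pracinostat values checked for a library far from the others, 1 was found, near the number that chance gives at about 1 in 20. Summit density at Hdac9 was at percentile 13.4 in pracinostat replicate 2, against 19.6, 19.7 and 20.7 in the other pracinostat libraries and 17.0, 24.3 and 18.3 in DMSO libraries.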

How the results depend on the processing

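No result given here for a member gene, start or named region passed the threshold under the alternatives run for it; the other member regions, and the 3 members not ranked at gene ends, were not followed through the alternatives. Calls over all features, 0 at gene ends, became 1 with genes marked in all 7 libraries, 2 with genes marked in any, 1 with lists of 30000 summits and 2 with windows of 500 bp. Over spans (0) and summit density (0) each became 1 with nothing added to the span. Over regions (2) they became 0 with the number of summits as covariate and 1 with regions marked in all 7 libraries. Leaving out 1 library gave 0 to 4 calls at gene ends (4 without DMSO replicate 3, 1 without pracinostat replicate 2), 0 to 2 over spans (2 without DMSO replicate 3), 0 for density, 0 to 2 over regions (0 without DMSO replicate 2 or pracinostat replicates 1 or 3, 1 without DMSO replicate 3 or pracinostat replicate 2) and 0 to 1 at starts (1 without DMSO replicate 3 or pracinostat replicate 2). The mean number of members with a summit was higher by 4.71 in H3K27ac than in IgG libraries, and by 1.86 when all lists had the shortest list's 2194 summits, where Hdac7 and Hdac9 had a summit in 0 H3K27ac libraries. The cause of these shifts was not tested.

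The sign of some small differences depended on the setting (normal-score units). Mef2a at gene ends became -0.39 with annotated starts only. Mef2d at gene ends became -0.28 with annotated starts only, -0.28 with windows of 2.5 kb and -0.15 with the covariate. For density, Hdac5 became -0.040 with nothing added and -0.015 with the covariate, Hdac7 0.060 with the covariate, and Hdac9 0.21 with lists of 30000 and 0.0062 with the covariate. Density at Mef2d became -0.10 with nothing added, -0.018 with lists of 30000 and -0.10 with the covariate. The region of Hdac9 with the highest mean became -0.073 when summits within 250 bp counted, and that of Mef2d 0.0031 with regions marked in all 7 libraries.

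Without 1 library, the difference ranged from 0.044 (without DMSO replicate 2) to 0.74 for Hdac5 at gene ends, where it was 0.079 with the covariate. Over spans it ranged from -0.98 (without DMSO replicate 3) to -0.24 (without DMSO replicate 1) for Mef2c and from -0.56 (without pracinostat replicate 3) to -0.020 (without DMSO replicate 2) for Mef2a. It ranged from -0.13 to 0.38 for Mef2d at gene ends and -0.21 to 0.17 over its span. For density it ranged from -0.18 to 0.0080 at Hdac4, -0.0012 to 0.33 at Hdac5, -0.38 to 0.089 at Hdac7, -0.11 to 0.020 at Hdac9 and -0.084 to 0.19 at Mef2d. For regions it ranged from -0.38 to 0.19 at the Hdac4 start, -0.45 to 0.38 at Hdac9, -0.62 to 0.65 before Mef2c start 3 and -0.17 to 0.19 downstream of Mef2d. At starts it ranged from -0.33 to 0.25 at Hdac4, -0.76 to 0.029 at Hdac7 start 2, -0.40 to 0.055 at Hdac9 start 2 and -0.00033 to 0.94 at Mef2c start 2.

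Libraries with the same replicate number did not deviate together, with correlations of -0.05 to 0.03, so the numbers were not taken to pair them. With the replicate block, calls were 0 at gene ends, 0 over spans, 0 for density, 0 at starts and 1 over regions; density at Mef2d became -0.026 and the Hdac9 region -0.39, and no other member changed sign. In DMSO replicate 2 the highest Hdac9 summit had that library's lowest value, 1.43.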
